A study of Mus musculus with 7 samples.

Results

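A set of 9 transcription factors that guide keratinocyte fate are described here from RNA-seq of mouse skin papillomas. They are *Trp63*, *Klf4*, *Klf5*, *Grhl1*, *Grhl3*, *Ovol1*, *Gata3*, *Pou2f3* and *Pou3f1*, and they were taken by gene symbol from the table of each papilloma. All 9 were found, at 1 locus each, among 23284 gene symbols. They were chosen with their values in TG and CTR papillomas known, so these values are given as a description and no test of them is made. Papillomas came from 4 control mice (CTR) and 3 *Nanog* transgenic mice (TG), with 1 library for each mouse, bred as littermates on a C57BL/6 background. In this protocol the skin receives the mutagen DMBA and then repeated doses of the tumor promoter TPA. All the animals carried the *tetO-Nanog* allele at the *Col1a1* locus, and all drank doxycycline at 2 mg/ml from before the DMBA dose onward, starting as age-matched adults. The *K5-rtTA* transgene was present in TG mice and absent from CTR mice. It places the doxycycline-dependent activator under a bovine keratin 5 promoter, which is active in basal cells of stratified epithelia. Papillomas were taken when the protocol ended, or earlier where an animal reached its humane endpoint.

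In stratified epidermis, basal cells divide and their daughters stop cycling, move up through spinous and granular layers and end as cornified cells. p63, encoded by *Trp63*, keeps the basal identity of these cells, and *Klf5* is expressed in proliferating basal keratinocytes. *Ovol1*, *Klf4*, *Grhl1* and *Grhl3* act as cells leave the basal layer and build the barrier. *Gata3* takes part in barrier lipid synthesis and hair follicle fate, and the POU factors encoded by *Pou2f3* and *Pou3f1* are expressed in suprabasal keratinocytes.

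Levels are given in FPKM, the fragments of a gene scaled to how long the transcript is and how many fragments were mapped in that library, so that genes of different length can be set side by side. The widths of the intervals that Cufflinks gave implied between 10074859 and 15710562 reads on genes in each library. Such an interval reflects counting within 1 library and says nothing of variation from mouse to mouse. *Nanog*, the induced gene, reached 36.9 FPKM in TG 1, 57.4 FPKM in TG 2 and 66.9 FPKM in TG 3 but spanned 2.70 to 12.7 FPKM among CTR papillomas. Over the 12299 genes whose mean was 0.5 FPKM or more, limma called 0 genes as higher in TG and 0 genes as lower after adjustment (threshold 0.05), or 0.0% in each direction. At an unadjusted p under 0.05, 4.86% of these genes were higher and 1.96% were lower, 6.82% together. *Nanog* itself had a log2 difference, TG minus CTR, of 3.45 and was not called (limma adjusted p = 0.40). A count of 0 genes passing this fit therefore does not show that no gene changed. TG 3 stood apart from the other papillomas, with Pearson correlations between 0.903 and 0.937 to them across genes, against 0.945 to 0.977 among the others. It held the highest of the 7 values for 41.1% of the tested genes and the lowest for 9.38%. Summed FPKM of 10 skeletal muscle markers was 660.5 in TG 3 and between 9.25 and 14.0 FPKM in the others, and that of 8 fibroblast markers was 700.4 against 84.1 to 142.0. The 6 keratinocyte keratins summed to 16570 FPKM in TG 3, to between 21710 and 24870 FPKM in CTR papillomas, and to 35580 and 28450 FPKM in TG 1 and TG 2. Of these, *Krt5* did not follow the sum, with 1783 FPKM in TG 3 and between 941.5 and 1730 FPKM in CTR papillomas. The other keratins, *Krt14*, *Krt1*, *Krt10*, *Krt6a* and *Krt16*, were lowest in TG 3. In such bulk tissue, fewer cells of a type and less RNA per cell cannot be told apart, and the part of this mixture in the values below was not tested.

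The 9 factors fell into a group of 6 with abundant mRNA and a group of 3 with less, called low here only beside the other 6. By mean over all papillomas, *Pou3f1* was above 50.2%, *Gata3* above 34.1% and *Pou2f3* above 32.5% of the tested genes. *Klf4* had the highest mean FPKM of the 9 in both groups of mice, and its lowest papilloma was above the highest value of any other factor. In CTR papillomas, *Klf4* had 173.9 ± 20.9 FPKM (SD, n = 4), above 97.6% of the tested genes by its mean over all papillomas. *Grhl3*, *Ovol1*, *Grhl1*, *Klf5* and *Trp63* followed, with CTR means from 69.2 down to 41.9 FPKM. The ranges of neighbours in this order overlapped. Within single papillomas, *Grhl3*, *Ovol1* and *Grhl1* took ranks 2 to 4 and *Klf5* and *Trp63* ranks 5 and 6 in all 7, while the order inside each of these sets changed from papilloma to papilloma. *Pou3f1*, *Gata3* and *Pou2f3* had CTR means of 3.38, 2.16 and 1.89 FPKM, each overlapping its neighbour in this order, with a gap to *Trp63* that no papilloma bridged in either group. The order in TG papillomas differed from that in CTR papillomas only among neighbours whose ranges overlapped.

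**Figure D1:**
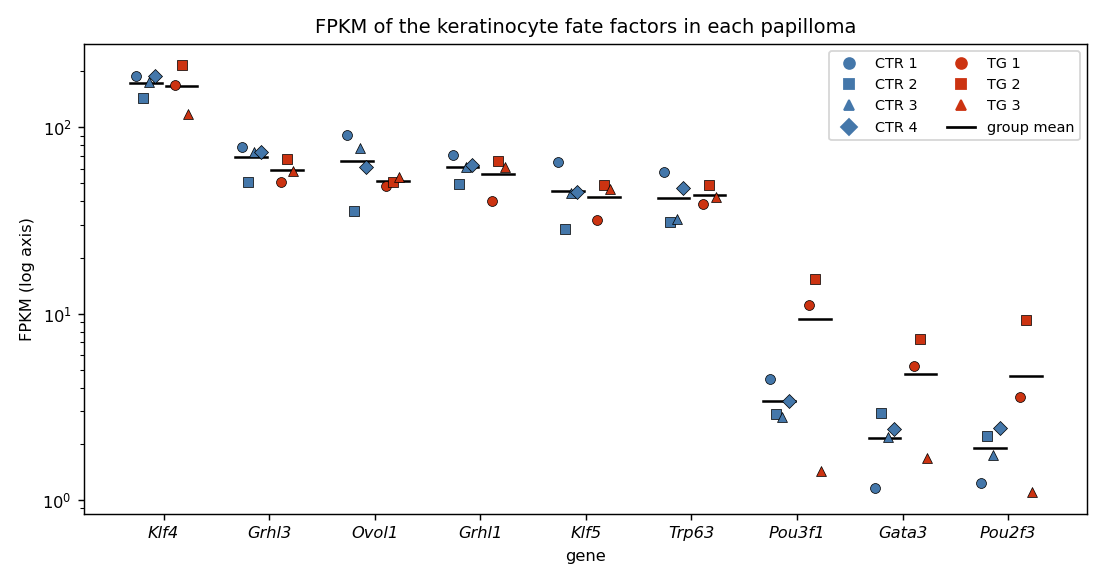
FPKM of each factor (log axis) in the 4 CTR papillomas (blue) and 3 TG papillomas (red), with a separate marker for each papilloma and bars for the group means. All 9 factors overlap between groups. *Pou3f1*, *Gata3* and *Pou2f3* are above every CTR papilloma in TG 1 and TG 2. In TG 3, *Pou3f1* and *Pou2f3* are below every CTR papilloma and *Gata3* is within the CTR range.

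*Trp63* lies on chromosome 16 from 25683765 to 25892088 on the plus strand (GRCm38, as for all coordinates given here, counted from 1). CTR 1 had 57.7, CTR 2 had 30.9, CTR 3 had 32.0 and CTR 4 had 47.0 FPKM of it, while TG 1 had 38.9, TG 2 had 48.8 and TG 3 had 42.1 FPKM. The TG papillomas thus lay within the CTR range. Mean levels were 43.3 ± 5.02 FPKM in TG (SD, n = 3) against 41.9 ± 12.8 FPKM in CTR (SD, n = 4). The locus is listed with 2 transcription start site entries, and the deposited gene values do not separate the TAp63 and ΔNp63 forms, which start from different promoters.

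*Klf5*, a zinc-finger factor on chromosome 14 from 99298691 to 99313409, stood at 64.9 FPKM for CTR 1, 28.6 for CTR 2, 44.2 for CTR 3 and 45.0 for CTR 4. It stood at 31.8 FPKM for TG 1, 48.8 for TG 2 and 46.7 for TG 3. The group means were 45.7 ± 14.9 FPKM for CTR (SD, n = 4) and 42.5 ± 9.27 FPKM for TG (SD, n = 3). As for *Trp63*, the highest and the lowest value were both in CTR papillomas. The log2 difference of the means, TG minus CTR on the log2(FPKM + 0.5) scale, was 0.09 for *Trp63* and -0.07 for *Klf5*, and leaving out single papillomas turned the sign of both.

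*Klf4*, also a zinc-finger factor and a driver of barrier formation, lies on chromosome 4 from 55527137 to 55532475. Its CTR values were 188.1 FPKM for CTR 1, 144.0 for CTR 2, 174.9 for CTR 3 and 188.5 for CTR 4. TG 1 was inside this range with 169.5 FPKM, TG 2 was above it with 215.5 FPKM, and TG 3 was below it with 118.3 FPKM. The mean was 167.8 ± 48.6 FPKM (SD, n = 3) in TG papillomas. Its log2 difference was -0.09 with all papillomas and 0.14 without TG 3.

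*Grhl1* and *Grhl3* encode grainyhead-like factors of epidermal barrier and junction genes. *Grhl1* (chromosome 12 from 24572287 to 24617391) was at 71.1, 49.8, 61.2 and 63.1 FPKM in CTR 1 to CTR 4, and at 40.3, 65.8 and 61.5 FPKM in TG 1 to TG 3. TG 1 was the lowest of the 7, and the other TG papillomas were within the CTR range. *Grhl3* (chromosome 4 from 135541888 to 135573620) had 79.0, 50.7, 73.4 and 73.7 FPKM in CTR 1 to CTR 4, and 51.1, 67.9 and 58.2 FPKM in TG 1 to TG 3. All TG values of *Grhl3* lay within the CTR range, and of the 12 ways to set 1 TG beside 1 CTR papilloma, TG was higher in 3. The log2 differences were -0.15 for *Grhl1* and -0.22 for *Grhl3*.

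*Ovol1*, a zinc-finger repressor that helps progenitors leave the cell cycle, lies on chromosome 19 from 5549137 to 5560575. It measured 91.6 FPKM for CTR 1, 35.4 for CTR 2, 77.6 for CTR 3 and 60.9 for CTR 4, with a coefficient of variation of 36.4% in CTR papillomas, where the median of all tested genes was 20.1%. In TG papillomas it had 48.6, 50.7 and 54.5 FPKM, a narrow range inside that of CTR. The log2 difference was -0.29. Of the distinct 40-base windows in its annotated transcripts, 20.1% also occur in transcripts of the opposite strand that overlap it (*Gm31166*, a processed pseudogene, and *AC126029.1*). The libraries were stranded, but whether the estimates used strand is not given in the sources used here, so reads there may not all belong to *Ovol1*.

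The other 3 factors spread more widely once TG papillomas were included, with 6.33-fold to 10.8-fold between their extremes against at most 2.58-fold for the abundant ones. Among CTR papillomas alone they did not, with coefficients of variation of 34.0% for *Gata3*, 27.6% for *Pou2f3* and 22.8% for *Pou3f1*. *Gata3*, on chromosome 2 from 9857078 to 9878600, measured 1.16 FPKM for CTR 1, 2.91 for CTR 2, 2.18 for CTR 3 and 2.39 for CTR 4. For TG 1 it was 5.22 FPKM, for TG 2 7.34 FPKM and for TG 3 1.67 FPKM. TG 1 and TG 2 exceeded every CTR papilloma and TG 3 fell inside the CTR range. Mean *Gata3* was 4.74 ± 2.86 FPKM for TG (SD, n = 3) and 2.16 ± 0.735 FPKM for CTR (SD, n = 4). Overlapping genes (*9230102O04Rik* and *Gm13256*) share 2.98% of its 40-base windows.

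*Pou2f3*, on chromosome 9 from 43123939 to 43205755, had 1.24, 2.19, 1.73 and 2.42 FPKM in CTR 1 to CTR 4. TG 1 had 3.58 FPKM, TG 2 had 9.20 and TG 3 had 1.09, so that TG 2 had the highest and TG 3 the lowest of the 7 values. These are 8.40-fold apart. The interval of TG 3 ran from 0.768 to 1.42 FPKM on 45 implied reads, and that of TG 2 from 8.30 to 10.1 FPKM on 421 implied reads. Mean *Pou2f3* was 4.62 ± 4.15 FPKM for TG (SD, n = 3) and 1.89 ± 0.523 FPKM for CTR (SD, n = 4).

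*Pou3f1*, a gene of 1 exon on chromosome 4 from 124657646 to 124660655, had 4.46, 2.89, 2.78 and 3.38 FPKM in CTR 1 to CTR 4. TG 1 reached 11.1 FPKM and TG 2 reached 15.4 FPKM, whereas TG 3 had 1.42 FPKM. Again TG 1 and TG 2 were above every CTR papilloma and TG 3 was below every one, with 10.8-fold between the extremes. Mean *Pou3f1* was 9.31 ± 7.16 FPKM for TG (SD, n = 3) and 3.38 ± 0.769 FPKM for CTR (SD, n = 4). An antisense transcript (*Gm2164*) shares 7.66% of its 40-base windows.

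The log2 difference was 0.84 for *Gata3*, 0.76 for *Pou2f3* and 0.89 for *Pou3f1*, and single papillomas decided its size. Without TG 3 it was 1.38, 1.42 and 1.83, and without TG 2 it was 0.45, 0.12 and 0.31 for the 3 genes in that order. *Nanog* did not follow this order within the TG group, since TG 3 had its highest level. None of the 9 factors separated the groups completely, where 4.93% of the tested genes had every TG papilloma above every CTR papilloma and 2.24% the reverse. By mean log2 value, 4 of the 9 were higher and 5 lower in TG, where 60.0% of the tested genes were higher. The median log2 difference of the 9 was -0.07 and that of all tested genes was 0.06. Without TG 3 these medians were 0.10 and -0.03.

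The pattern with TG 1 and TG 2 above every CTR papilloma and TG 3 below the CTR mean was shared by *Gata3*, *Pou2f3* and *Pou3f1* among the 9, and by 2.58% of the tested genes. It was picked after the values had been seen and with the members already chosen on this contrast, so nothing is read from the count. *Pou2f3* and *Pou3f1* were among the 1.03% of tested genes with TG 3 also below every CTR papilloma. Other cell types that express these factors were looked at through their markers. *Pou2f3* is the master regulator of tuft cells, whose 8 markers summed to 18.3 FPKM in TG 3 and at most 7.04 FPKM elsewhere. Of these, *Il25* and *Gfi1b* were at 0 in all 7 papillomas and *Trpm5* was at most 0.0278 FPKM. *Gata3* is also expressed in T and innate lymphoid cells, and the 9 lymphoid markers found summed to between 1.81 and 4.19 FPKM in CTR papillomas while the sum was 3.08 FPKM for TG 1, 5.74 for TG 2 and 5.46 for TG 3. *Pou3f1* is also expressed in Schwann cells, whose 8 markers summed to 8.99 FPKM in TG 3 and to at most 3.83 FPKM elsewhere. The 8 myeloid markers found summed to between 630.6 and 1848 FPKM in CTR papillomas while TG 1 had 3386, TG 2 had 4244 and TG 3 had 1779 FPKM. *S100a8* and *S100a9*, which keratinocytes also make, held most of that sum. Of the other myeloid markers, *Ptprc*, *Itgam*, *Csf1r*, *Lyz2* and *Cd14* were highest in TG 3, with 8.17 FPKM of *Ptprc* there and at most 1.47 FPKM elsewhere. *Cd68* was not, with 18.2 FPKM in TG 3 and between 15.4 and 20.6 FPKM in CTR papillomas. Adipocyte markers summed to 1798 FPKM in TG 3 and to between 1374 and 3228 FPKM in CTR papillomas, nearly all of it *Fabp4*, and the other 6 were highest in TG 3, with *Car3* at 86.5 FPKM there and at most 0.184 FPKM elsewhere. Melanocyte markers summed to 7.51 FPKM in TG 1, 6.10 FPKM in TG 2 and 4.98 FPKM in TG 3. Their sums in CTR papillomas ran from 1.80 to 5.88 FPKM. The part of any of these cell types in the 3 factors was not tested.

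**Figure D2:**
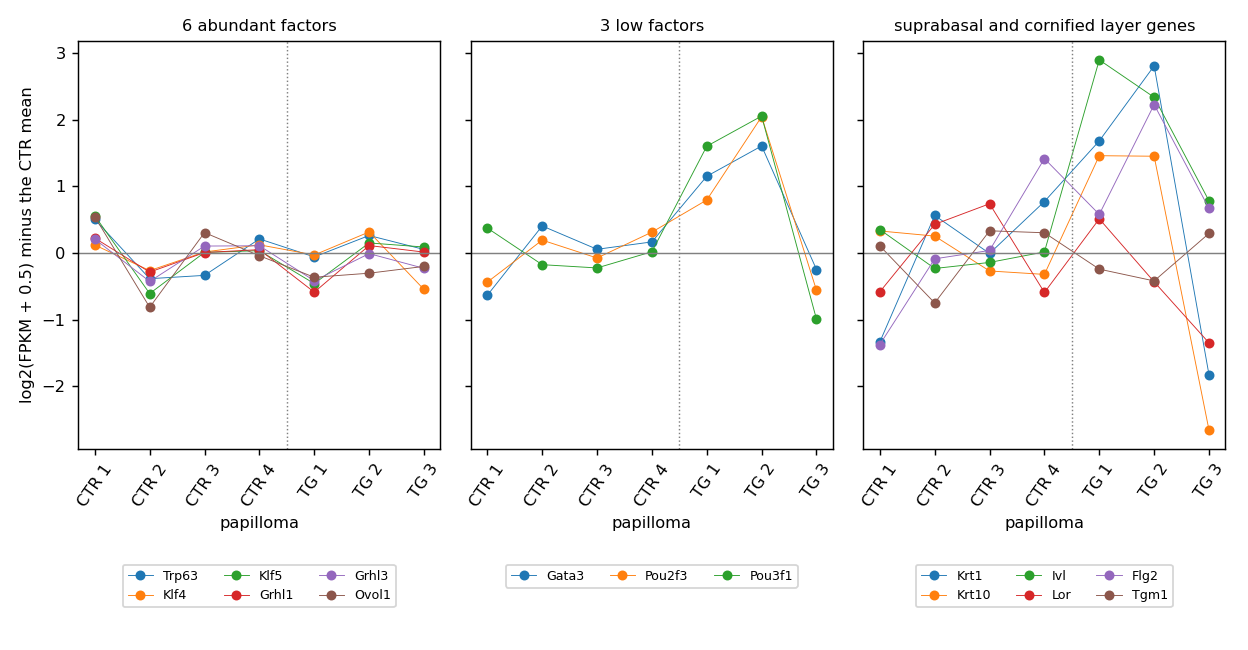
Values on the log2(FPKM + 0.5) scale minus the CTR mean of each gene (vertical axis) in the 7 papillomas (horizontal axis) for the 6 abundant factors, the 3 low factors and, at right, the 6 genes listed earliest in the suprabasal and cornified layer list that were measured. Thin lines join the points of a gene and imply no order. *Gata3*, *Pou2f3* and *Pou3f1* are above the CTR mean in TG 1 and TG 2 and below it in TG 3, as are *Krt1* and *Krt10*. *Ivl*, *Lor*, *Flg2* and *Tgm1* at right do not follow this order, and *Ivl* is above every CTR papilloma in TG 3. The abundant factors vary less than the 3 low ones.

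Profiles across the 7 papillomas set the same factors side by side. Pearson's r of log2 values was 0.94 between *Gata3* and *Pou2f3*, 0.87 between *Pou2f3* and *Pou3f1*, and 0.81 between *Gata3* and *Pou3f1*. Without TG 3 these were 0.94, 0.84 and 0.80. Among the abundant factors, *Klf5* had r = 0.88 with *Grhl1*, 0.86 with *Grhl3* and 0.83 with *Ovol1*. *Klf4* had its highest r with *Pou3f1* (0.72), and without TG 3 with *Trp63* (0.76). These values rest on 7 papillomas from the 2 groups, TG 3 among them, and are a description without a test.

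**Figure D3:**
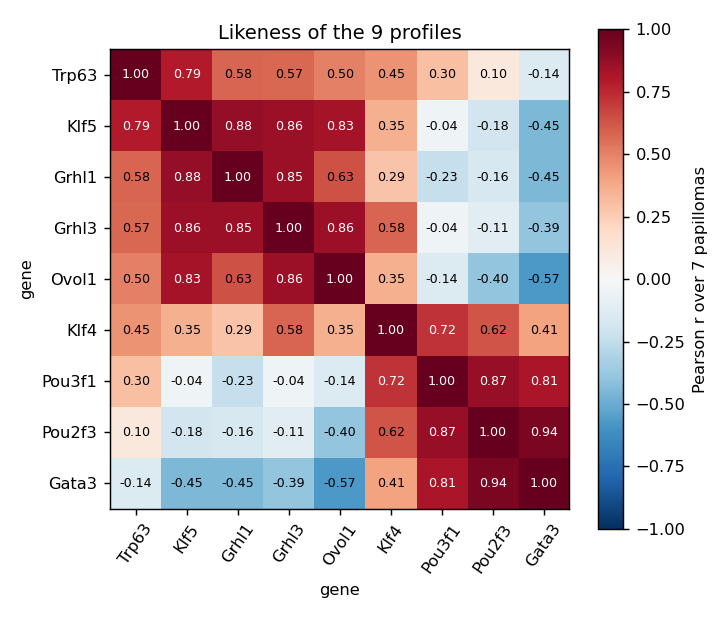
Pearson's r between the log2(FPKM + 0.5) profiles of each pair of the 9 factors (both axes) over the 7 papillomas, with the color scale from -1 to 1. *Klf5*, *Grhl1*, *Grhl3* and *Ovol1* form one block with r from 0.63 to 0.88, and *Pou3f1*, *Pou2f3* and *Gata3* form another with r from 0.81 to 0.94.

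Among all tested genes, those most like each factor were listed by r. *Atp13a5* and *Slc37a2* were closest to *Gata3* (r = 0.99 for both), and *Atp13a5* was at 1.48 FPKM (TG 1), 2.27 FPKM (TG 2) and 0.224 FPKM (TG 3). *Rdh16* and *2310005A03Rik* were closest to *Pou2f3* (r = 0.98 for both), and *Slc30a1* and *Lipn* to *Pou3f1* (r = 0.99 for both). *Lipn*, an epidermal lipase, had between 2.03 and 3.13 FPKM in CTR papillomas but 6.67 FPKM for TG 1, 9.95 FPKM for TG 2 and 1.20 FPKM for TG 3. For *Klf4* the closest were *Ifrd1* (r = 0.98) and *Riok1* (r = 0.94), and 1 tested gene reached r = 0.95. For *Trp63* they were *Nras* and *Nat6* (r = 0.97 for both), for *Klf5* *Mcmbp* (r = 0.99) and *Trpc2* (r = 0.98), and for *Ovol1* *C230052I12Rik* (r = 0.98) and *Ccdc9* (r = 0.97). *Zcchc7* and *Fam103a1* were closest to *Grhl1* (r = 0.97 for both), and *Tspan5* (r = 0.98) and *Mapkbp1* (r = 0.97) to *Grhl3*. For *Gata3*, 39 tested genes reached r = 0.95.

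Promoter sequence was at hand in the RefSeq table (GRCm38.p6) for 4 of the 9 factors, *Klf4*, *Grhl1*, *Grhl3* and *Gata3*. *Trp63*, *Klf5*, *Ovol1*, *Pou2f3* and *Pou3f1* had no entry. All 4 with an entry are printed, and they range from the most abundant factor to one of the 3 low ones. Each is a window of 300 bases around the start site, most of it upstream, printed 5′ to 3′, at chr4:55532426-55532725 (minus strand) for *Klf4*, chr12:24572037-24572336 (plus strand) for *Grhl1*, chr4:135573583-135573882 (minus strand) for *Grhl3* and chr2:9878551-9878850 (minus strand) for *Gata3*. Capitals mark CCGCCC and CACCC on either strand, the GC box and CACC box that Krüppel-like and Sp factors can bind.
Klf4: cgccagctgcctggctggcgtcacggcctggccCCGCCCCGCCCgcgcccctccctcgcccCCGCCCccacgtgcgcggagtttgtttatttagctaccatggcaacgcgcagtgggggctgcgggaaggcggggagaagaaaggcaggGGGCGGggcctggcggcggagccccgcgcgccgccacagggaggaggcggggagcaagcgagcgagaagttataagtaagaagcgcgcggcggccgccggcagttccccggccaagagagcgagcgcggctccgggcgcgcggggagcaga
Grhl1: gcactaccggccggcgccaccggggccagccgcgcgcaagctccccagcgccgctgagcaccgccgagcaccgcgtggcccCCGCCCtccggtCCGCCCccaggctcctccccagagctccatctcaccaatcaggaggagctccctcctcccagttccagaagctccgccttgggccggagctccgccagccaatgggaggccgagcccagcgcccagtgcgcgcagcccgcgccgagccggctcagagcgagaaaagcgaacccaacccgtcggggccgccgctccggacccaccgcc
Grhl3: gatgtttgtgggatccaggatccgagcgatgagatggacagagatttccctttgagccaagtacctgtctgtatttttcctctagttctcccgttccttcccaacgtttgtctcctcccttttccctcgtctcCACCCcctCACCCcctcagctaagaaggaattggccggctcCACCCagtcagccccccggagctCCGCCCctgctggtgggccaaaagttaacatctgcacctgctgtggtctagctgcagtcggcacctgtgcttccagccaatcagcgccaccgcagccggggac
Gata3: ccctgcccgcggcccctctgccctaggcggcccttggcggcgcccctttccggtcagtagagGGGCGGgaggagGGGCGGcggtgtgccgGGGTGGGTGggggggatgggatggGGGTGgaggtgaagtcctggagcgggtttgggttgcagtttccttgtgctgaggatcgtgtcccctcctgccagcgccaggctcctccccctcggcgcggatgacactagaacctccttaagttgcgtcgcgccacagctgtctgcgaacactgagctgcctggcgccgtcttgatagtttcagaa

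These 4 promoters were GC-rich. G and C made up 74.3% of the *Klf4*, 75.3% of the *Grhl1*, 58.3% of the *Grhl3* and 67.3% of the *Gata3* promoter, against a median of 52.7% over 32851 promoters of this length. CCGCCC occurred 4 times in *Klf4*, 2 times each in *Grhl1* and *Gata3* and 1 time in *Grhl3*, and 35.7% of all promoters held it. CACCC occurred 3 times each in *Grhl3* and *Gata3* and was absent from the *Klf4* and *Grhl1* windows, with 57.5% of all promoters holding it. A further 5 motifs were searched on both strands and had 0 matches in the 4 windows, and no p63 motif was searched. The sequence AGATAA, which GATA factors can bind, occurs in 11.2% of all promoters. The POU octamer ATGCAAAT occurs in 1.74%, and AACCNGTT, a grainyhead-like motif, in 2.09%. CCGTTA, an OVOL motif, occurs in 2.76% and TATAAA in 13.6%. A match is a description of letters and not evidence of binding.

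Other regulators of the basal state and of progenitor cells were read from the same fit, which asks whether factors around the 9 differed between TG and CTR papillomas. Of 16 tested, 0 passed an adjusted p of 0.05 in either direction, and at an unadjusted p under 0.05 there were 0 higher and 3 lower in TG papillomas. These, *Tfap2b*, *Id1* and *Id2*, had every TG papilloma below every CTR papilloma. *Tfap2b*, an AP-2 factor, had 1.95, 4.26, 2.62 and 2.22 FPKM in CTR 1 to CTR 4 and 1.37, 1.19 and 0.235 FPKM in TG 1 to TG 3, which is -1.25 on the log2 scale with a standard error of 0.37 (limma, adjusted p = 0.607). *Id1*, an inhibitor of basic helix-loop-helix factors, averaged 71.8 ± 11.4 FPKM in TG (SD, n = 3) against 99.5 ± 15.4 FPKM in CTR (SD, n = 4) (log2 difference -0.47, limma adjusted p = 0.713). *Id2* had 8.05 ± 1.66 and 14.8 ± 7.36 FPKM (log2 difference -0.76, limma adjusted p = 0.719). *Myc*, with *Id1* the most abundant of this list, had a log2 difference of -0.18. *Bcl11b*, named after its values were seen, was above every CTR papilloma in TG 1 (5.21 FPKM) and TG 2 (7.35 FPKM) and below the CTR mean in TG 3 (2.97 FPKM), the order of *Gata3*, *Pou2f3* and *Pou3f1*. The list's median log2 difference was -0.11, beside 0.06 for all tested genes.

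Of 27 regulators of differentiation tested, 0 passed the adjusted threshold and 1 was higher at an unadjusted p under 0.05. This was *Rora*, a nuclear receptor of keratinocyte differentiation, which was 3.66 FPKM for TG 1, 6.67 FPKM for TG 2 and 2.48 FPKM for TG 3, against a CTR mean of 2.17 ± 0.268 FPKM (SD, n = 4). Its log2 difference was 0.75 (limma adjusted p = 0.702), and 11 of 12 pairs were higher in TG. *Dlx3*, named after its values were seen, had every TG papilloma below every CTR papilloma, as did 2.24% of all tested genes. It averaged 8.39 FPKM in TG against 11.3 FPKM in CTR (log2 difference -0.39, limma adjusted p = 0.760). *Hopx* and *Nfe2l2*, the most abundant of the list, had log2 differences of -0.02 and -0.44. *Cebpa* and *Dlx5*, named after their values were seen, had TG 1 and TG 2 above every CTR papilloma and TG 3 below the CTR mean, the same order as the 3 low factors. The list's median log2 difference was 0.15.

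Relatives within the p53, KLF, GRHL, OVOL, GATA and POU families were also compared. Of 29 found, 17 passed the filter on low values, and *Pou3f4* was at 0 in every papilloma. At the adjusted threshold 0 passed, and 1 was higher at an unadjusted p under 0.05. It was *Klf2*, known from endothelium and lymphocytes, with a log2 difference of 0.92 (limma adjusted p = 0.713). TG 3 held its highest value, 3.37 FPKM, while TG 1 had 2.13 and TG 2 had 1.22. The 8 endothelial markers summed to 41.9 FPKM for TG 3, to 36.7 for TG 1 and to 18.6 for TG 2. Their CTR sums ran from 15.4 to 21.8 FPKM, and 4 of the 8 markers were highest in TG 3. The part of endothelial cells in *Klf2* was not tested. *Klf3* and *Klf10* were the most abundant relatives, with means of 42.4 and 33.3 FPKM in CTR papillomas, below *Klf4* in every papilloma. *Grhl2*, the third grainyhead-like gene, had between 5.55 and 9.44 FPKM over the 7 papillomas, far under *Grhl1* and *Grhl3*, and *Ovol2* had at most 1.58 FPKM in any papilloma. Named after their values were seen, *Klf8* had every TG papilloma below every CTR papilloma (log2 difference -0.47, limma adjusted p = 0.801) and *Gata2* the reverse. *Gata2* was under the filter and not tested, with means of 0.637 FPKM in TG and 0.223 FPKM in CTR. The median log2 difference of the tested relatives was -0.02.

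**Figure D4:**
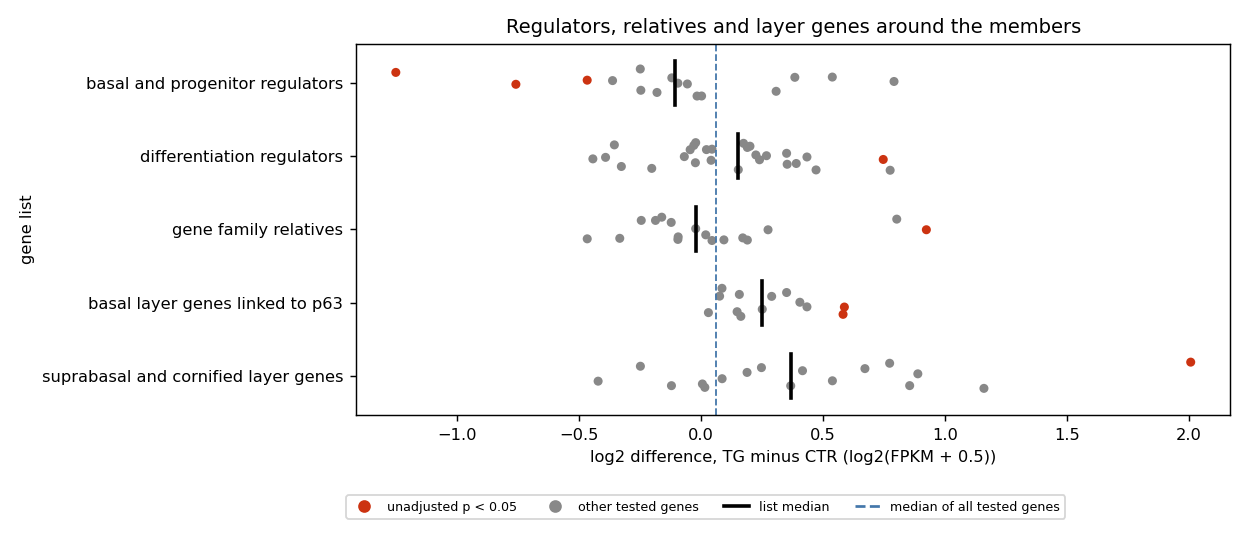
Log2 differences, TG minus CTR (horizontal axis), of the tested genes of 5 lists (vertical axis), with list medians as bars and the median of all tested genes, 0.06, as a dashed line. Genes with an unadjusted p under 0.05 are red, and none passed after adjustment.

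Genes that mark the layers these factors act in were compared last. Of 13 tested basal genes linked to p63, 0 passed the adjusted threshold and 2 were higher at an unadjusted p under 0.05, *Col17a1* and *Cdh3*. *Col17a1*, a hemidesmosome collagen, averaged 121.0 ± 28.8 FPKM in TG (SD, n = 3) against 80.8 ± 19.4 FPKM in CTR (SD, n = 4) (log2 difference 0.59, limma adjusted p = 0.719). *Cdh3*, which encodes P-cadherin, had a log2 difference of 0.58 (limma adjusted p = 0.719), and both genes were highest in TG 3. Of the 13, 7 were highest in TG 3, as were 41.1% of all tested genes and 0 of the 17 suprabasal and cornified genes below. *Krt14* and *Perp*, the most abundant, had log2 differences of 0.09 and 0.16. The list's median was 0.25.

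Of 17 tested genes of the suprabasal and cornified layers, 0 passed the adjusted threshold and 1 was higher at an unadjusted p under 0.05. *Ivl*, which encodes the cornified envelope protein involucrin, was at 159.0 FPKM for TG 1, 107.6 FPKM for TG 2 and 36.4 FPKM for TG 3, with a CTR mean of 21.2 ± 4.04 FPKM (SD, n = 4). The log2 scale gave 2.01 with a standard error of 0.43 (limma adjusted p = 0.538), and 12 of 12 pairs were higher in TG (2-sided exact permutation test, p = 0.0286, the smallest that 35 splits allow). This permutation p is unadjusted and *Tfap2b* had the same, while 4.93% of the tested genes had every TG papilloma above every CTR papilloma. Without TG 3 *Ivl* passed, with a log2 difference of 2.62 (limma adjusted p = 0.0148). *Krt1*, *Krt10*, *Dsg1a*, *Sprr1b*, *Casp14* and *Klk5* of this list followed the order of *Gata3*, *Pou2f3* and *Pou3f1*, a selection made after the values were seen. *Krt10*, the keratin of spinous cells, had between 916.6 and 1440 FPKM in CTR papillomas, 3150 and 3133 FPKM in TG 1 and TG 2, and 181.3 FPKM in TG 3. *Krt1* had between 187.1 and 807.1 FPKM in CTR papillomas but 1517 FPKM for TG 1, 3309 FPKM for TG 2 and 132.7 FPKM for TG 3. *Sprr1a* and *Sprr1b*, which had the highest mean FPKM of the list by the rule for named genes, had log2 differences of 0.01 and 0.25. The list's median log2 difference was 0.37 with all papillomas and 0.65 without TG 3.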

How the data were processed

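Papilloma RNA of the 7 mice was sequenced as stranded polyA+ libraries with single reads of 40 bases. The authors mapped the reads on GRCm38 using TopHat 2.0.4 (built on Bowtie 0.12.7, with Samtools 0.1.16). They deposited FPKM values from Cufflinks 1.3.0 for each library on its own, with an interval and a status. Values of a symbol listed at several loci were summed, and 162 symbols with a failed estimate in any library were left out. Depth was taken from the interval widths, since the files give no read counts.

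FPKM values were analysed as log2(FPKM + 0.5) with limma 3.58.1 in R 4.3.3 (moderated variances with a trend, 2-sided, Benjamini-Hochberg adjustment over the 12299 genes whose mean was 0.5 FPKM or more), and summaries were made in Python 3.11.15. Such differences understate the change of low genes. Cuffdiff, which needs aligned reads, was not used here. The fit was also run on simulated data with known changes and independent noise. No simulated papilloma stood apart across genes as TG 3 did, so that run does not measure recovery in these data. Single genes outside the 9 were compared by exact permutation over 35 splits. The 9 factors and the gene lists were chosen with earlier results of these data known. Named were, from each list, genes with an unadjusted p under 0.05 and the 2 most abundant, and for likeness the 2 genes of highest r. Alternatives changed 1 choice at a time, 21 in all. Transcript windows were compared in GENCODE vM21.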

Additional observations from a re-analysis of the deposited data

Results flagged for a closer look

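*Nanog* in CTR 3 stood apart from the other CTR papillomas. Its gap to the nearest value, divided by the CTR range, was 0.936, above Dixon's critical value for 4 samples. It had 12.7 FPKM there, and between 2.70 and 3.34 FPKM in CTR 1, CTR 2 and CTR 4. Of 27 genes examined in this way, the 9 factors among them, this was the 1 gene that met the limit, and chance alone does so in about 1 of 20 groups. In CTR 3 the 9 factors lay within the range of the other CTR papillomas or, for *Pou3f1*, just under it with 2.78 FPKM.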

How the results depend on the processing

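The 0 genes called in each direction became 49 higher and 36 lower with sample quality weights, where 1 regulator of differentiation (*Rora*, adjusted p = 0.0453 from limma) and 1 suprabasal gene (*Ivl*, adjusted p = 0.0195 from limma) passed. In the papillomas of lower depth 1 gene was higher, *Nanog*. Leaving out each papilloma in turn gave 0 to 9 genes higher, 0 to 8 lower and 0 to 1 suprabasal genes, with 1 higher without CTR 3, 2 higher without TG 1, and 9 higher and 8 lower without TG 3. The unadjusted counts of 598 higher and 241 lower became 391 and 562 with quantile normalization, 495 and 439 with upper quartile scaling, and 1161 and 1248 with quality weights. A replicate block in the fit left 0 genes called either way (505 higher and 170 lower at an unadjusted p under 0.05), and same-numbered papillomas had correlations of deviations of -0.186, 0.0431 and -0.146, so the numbers were not taken as pairs. The cause of these shifts was not tested. *Gata3*, *Pou2f3* and *Pou3f1* kept a higher mean in TG papillomas in all 21 alternatives, and *Grhl3* and *Ovol1* a lower one. *Pou2f3* ranged from 0.12 without TG 2 to 1.64 with quality weights, and *Pou3f1* from 0.31 without TG 2 to 1.83 without TG 3. *Trp63* was higher in 18, *Klf5* in 4, and *Klf4* and *Grhl1* in 2 of the 21. Several alternatives changed only the filter, the moderation of variances, or the handling of loci and failed estimates. These could not move the differences of the 9 factors, and the replicate block gave the same differences as leaving out CTR 4. With the factors chosen on this contrast, the counts out of 21 do not measure robustness. Low FPKM limits *Pou2f3*, *Pou3f1* and *Gata3*, with as few as 45, 53 and 61 implied reads in that order.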
